A study of Mus musculus with 8 samples.

Results

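The 10 genes described here are the imprinted genes Mest, H19, Igf2, Igf2r, Peg3, Dlk1, Meg3, Cdkn1c, Grb10 and Plagl1, 10 of the 24454 gene rows of a read count table from sorted mouse yolk sac cells. They were taken by name, as a list of classical imprinted genes, after Mest had been seen among the genes with the largest falls in erythroid against endothelial libraries, so they were chosen by the measured counts of that contrast. That contrast chose the list, and values of these genes in it are given as a description, with no test. Mest gets no test in any comparison. All 10 genes passed the filter on low counts that left 12136 genes for testing. Mest, Dlk1 and Plagl1 had 0 counts in every erythroid library and passed only through the other groups. The direction of their differences from erythroid libraries was thereby fixed.

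RNA came from yolk sacs at E11.5, when the tissue holds vessels and primitive red cells, of C57BL/6 embryos labelled miR144-451+/GFP, so every group carried the green fluorescent protein (GFP) reporter at the miR-144/451 locus on 1 allele. Cells were neither cultured nor treated, and were sorted into small pools on GFP and on antibody staining for VE-Cadherin, a junction protein of endothelium whose gene is Cdh5. The double positive group was VE-Cadherin+GFP+, with 2 pools of 24 cells (replicates 7 and 8). The erythroid group was VE-Cadherin-GFP+, with 3 pools of 25 cells (replicates 4 to 6), and the endothelial group was VE-Cadherin+GFP-, with 3 pools of 25 cells (replicates 1 to 3). The labels do not say whether the pools came from separate embryos, so the p-values below measure how these pools scatter, which can be technical scatter.

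Imprinted genes are transcribed mainly from the allele of 1 parent, and the choice rests on DNA methylation at imprinting control regions that is set in the germ line and kept through cell division. Many of them regulate growth of the embryo and of the placenta and yolk sac: paternally expressed genes such as Igf2 tend to promote growth, and maternally expressed genes such as Igf2r, Grb10 and Cdkn1c tend to restrain it. Mest, Igf2, Peg3, Dlk1 and Plagl1 are known as paternally expressed in mouse embryos, and H19, Igf2r, Meg3, Cdkn1c and Grb10 as maternally expressed in most tissues. The counts give the sum over both alleles, so nothing here bears on which allele was read.

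Levels are normalised read counts (CPM) on effective library sizes from TMM (trimmed mean of M values), and are not shares of a library. Total counts were 4637930 and 4818074 in the double positive libraries, 5291843 to 7618444 in the erythroid libraries and 3723128 to 4439165 in the endothelial libraries. Scaling by library size alone would shift the median log2 difference over all genes by -0.63 for double positive against endothelial, by 0.90 for double positive against erythroid and by -1.54 for erythroid against endothelial libraries. The labels were checked against marker genes. Cdh5 averaged 51.0 ± 7.19 CPM in double positive libraries (SD, n = 2), stood at 0 in all 3 erythroid libraries, and averaged 209 ± 32.0 CPM in endothelial libraries (SD, n = 3). The summed level of 18 core endothelial genes was 702 and 959 CPM in the double positive libraries, 2.54 to 9.09 CPM in the erythroid libraries with 16 of the 18 genes at 0, and 4672 to 6690 CPM in the endothelial libraries. The double positive libraries also carried other RNA: 20 visceral endoderm genes summed to 101401 and 100528 CPM there, to 10.1 to 22.5 CPM in erythroid and to 113 to 228 CPM in endothelial libraries. Erythroid markers summed to 79528 and 138620 CPM in double positive, to 959799 to 1021313 CPM in erythroid and to 145 to 170 CPM in endothelial libraries. Mesenchyme and mesothelium markers summed to 392 and 345 CPM in double positive, to at most 0.466 CPM in erythroid and to 13.8 to 32.8 CPM in endothelial libraries. In double positive libraries 13 of these 15 genes had counts, and Msln and Prrx1 had 0. The part of these other markers in the differences of the imprinted genes was not tested.

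Both Mest and H19 host microRNAs, and their mature sequences are shown because 1 of these host RNAs had the highest level per length of the 10 genes in each population. Mir335 lies in an intron of Mest, whereas Mir675 lies in an exon of H19, with 84 bases shared by both annotations, so reads of that exon belong to either. The mature sequences are from RefSeq (GRCm38.p6), and capitals mark the seed (bases 2 to 8).
mmu-miR-335-5p (chr6:30741314-30741336, plus strand): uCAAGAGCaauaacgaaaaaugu
mmu-miR-335-3p (chr6:30741354-30741375, plus strand): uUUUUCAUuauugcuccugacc
mmu-miR-675-5p (chr7:142577112-142577133, minus strand): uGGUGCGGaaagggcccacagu
mmu-miR-675-3p (chr7:142577078-142577099, minus strand): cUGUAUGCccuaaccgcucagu
The 4 seeds differ from each other, and none of the 4 is shared with another mouse microRNA arm in the RefSeq table. A library made from polyadenylated RNA does not read mature microRNAs. Of 14 microRNA rows read, 4 of which lie inside a gene of the 10, only Mir335 had counts. Mir1906-1, which overlaps an exon of Meg3, was not among the 14. Mir335 had 0 and 1 count in double positive libraries, 0 in the 3 erythroid libraries, and 9, 0 and 3 counts in endothelial replicates 1, 2 and 3.

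The promoters of Mest, Peg3 and Plagl1 are known in mouse as imprinting control regions whose CG sites are methylated on the maternal copy. They are shown because these 3 paternally expressed genes differed in what was left in erythroid libraries: Mest and Plagl1 stood at 0 there, and Peg3 was lower than in endothelial libraries but present. Each is a RefSeq window (GRCm38.p6) of 250 bases before to 50 bases after the annotated start, with every CG in capitals. CG reads the same on both strands.
Mest (chr6:30737800-30738099, plus strand): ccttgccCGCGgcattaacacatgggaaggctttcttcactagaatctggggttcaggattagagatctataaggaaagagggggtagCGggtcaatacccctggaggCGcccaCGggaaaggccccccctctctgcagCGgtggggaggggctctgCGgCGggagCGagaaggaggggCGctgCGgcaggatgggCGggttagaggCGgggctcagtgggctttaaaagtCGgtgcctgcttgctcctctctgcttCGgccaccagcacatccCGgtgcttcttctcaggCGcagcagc
Peg3 (chr7:6730370-6730669, minus strand): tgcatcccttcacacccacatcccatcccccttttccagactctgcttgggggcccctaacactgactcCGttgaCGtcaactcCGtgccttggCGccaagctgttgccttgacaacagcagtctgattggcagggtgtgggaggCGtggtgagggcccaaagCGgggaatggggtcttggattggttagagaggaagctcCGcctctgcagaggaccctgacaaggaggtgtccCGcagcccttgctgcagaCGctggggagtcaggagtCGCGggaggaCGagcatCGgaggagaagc
Plagl1 (chr10:13090582-13090881, plus strand): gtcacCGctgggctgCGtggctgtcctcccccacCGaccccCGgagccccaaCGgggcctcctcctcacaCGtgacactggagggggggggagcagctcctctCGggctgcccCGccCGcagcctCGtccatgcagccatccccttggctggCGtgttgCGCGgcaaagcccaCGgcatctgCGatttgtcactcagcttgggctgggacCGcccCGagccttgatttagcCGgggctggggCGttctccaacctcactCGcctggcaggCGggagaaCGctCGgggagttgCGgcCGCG
The Mest window shown, 1 of 3 for that gene, holds 17 CG, a number reached by 31.4% of the 32851 windows of all genes. The Mest window at chr6:30737803-30738102 also holds 17 CG, and that at chr6:30733256-30733555 holds 8, reached by 48.6%. The Peg3 window holds 13 CG, reached by 37.9%, and it also contains the start of Usp29, 147 bases from that of Peg3. The Plagl1 window holds 26 CG, reached by 16.9%. Over all windows the median was 7 CG, and 94.6% held at least 1. Methylation was not measured here.

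Each population had its own profile of the 10 genes. Endothelial libraries were high in Mest, Igf2 and H19, and contained all 10 genes. Double positive libraries contained all 10 as well, with more H19 and less Mest, Igf2 and Plagl1 than endothelial libraries. Erythroid libraries had H19, Grb10 and Peg3, a little Igf2r, and few or no reads of the other 6 genes. The plot of levels by library shows every value.

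**Figure D1:**
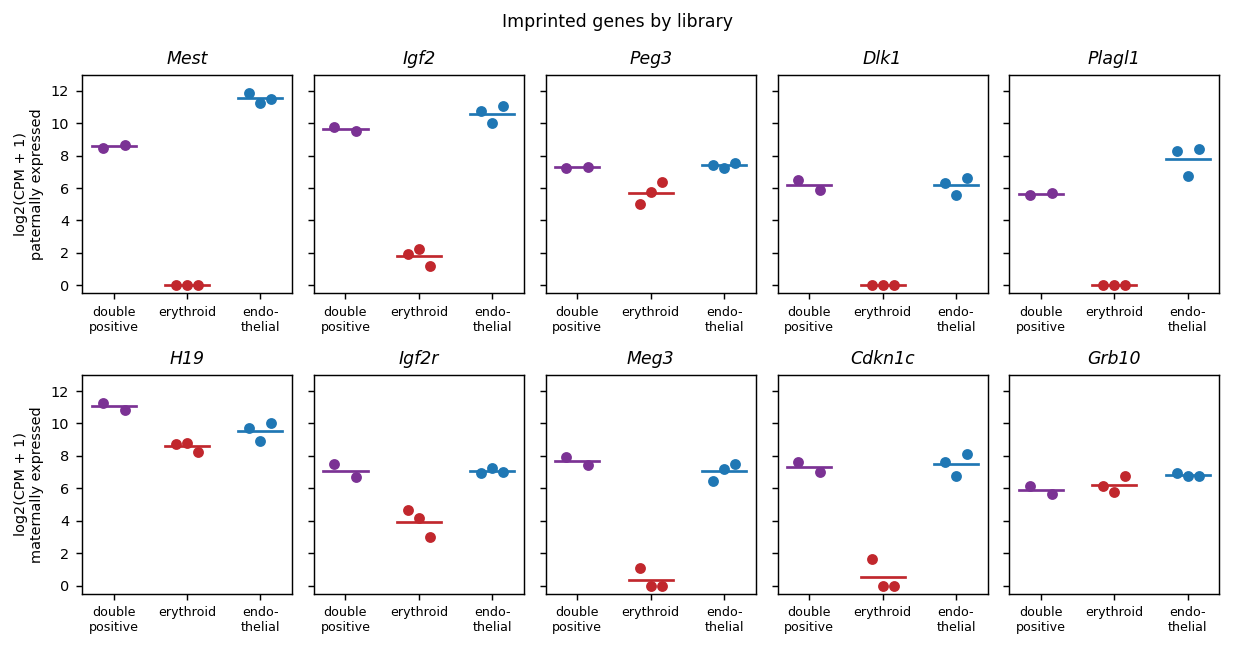
Level of each of the 10 genes in every library, as log2(CPM + 1), with double positive, erythroid and endothelial libraries from left to right. Points are libraries, lines are group means on that scale, the upper row holds paternally expressed genes and the lower row maternally expressed ones. Mest, Dlk1 and Plagl1 lie at 0 in all 3 erythroid libraries, while H19 lies above 300 CPM in each.

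In the double positive against endothelial comparison, 9 of the 10 genes could be tested. H19 was higher, Igf2 and Plagl1 were lower, and 6 were not called (edgeR quasi-likelihood test, Benjamini-Hochberg adjusted p under 0.05 over all genes). Among all genes tested 14.6% were called higher and 6.92% lower. Libraries did not overlap for 1 of the 9 in the higher direction and 3 in the lower direction, where 32.9% and 24.6% of all genes were so ordered. The median log2 difference of the 9 genes was -0.11, against 0.06 over all genes. In the double positive against erythroid comparison, 8 of the 9 genes were higher and Grb10 was not called, where 31.5% of all genes were called higher and 10.6% lower. The same 8 had no overlap of libraries, where 47.5% of all genes lay higher with no overlap. The median log2 difference of the 9 was 7.43 with genes at 0 set to their lower bound. Over all genes it was 0.71 by fitted values without such bounds, which is not quite the same measure. In the erythroid against endothelial comparison every erythroid library lay below every endothelial library for all 10 genes, where 32.1% of all genes were ordered so, and since that contrast chose the list nothing is read from it. The comparisons share libraries pairwise and are not independent of each other. The double positive against erythroid comparison reuses the erythroid libraries in which the fall that chose the list was seen. Its calls for the members therefore describe low erythroid values and are not separate support.

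**Figure D2:**
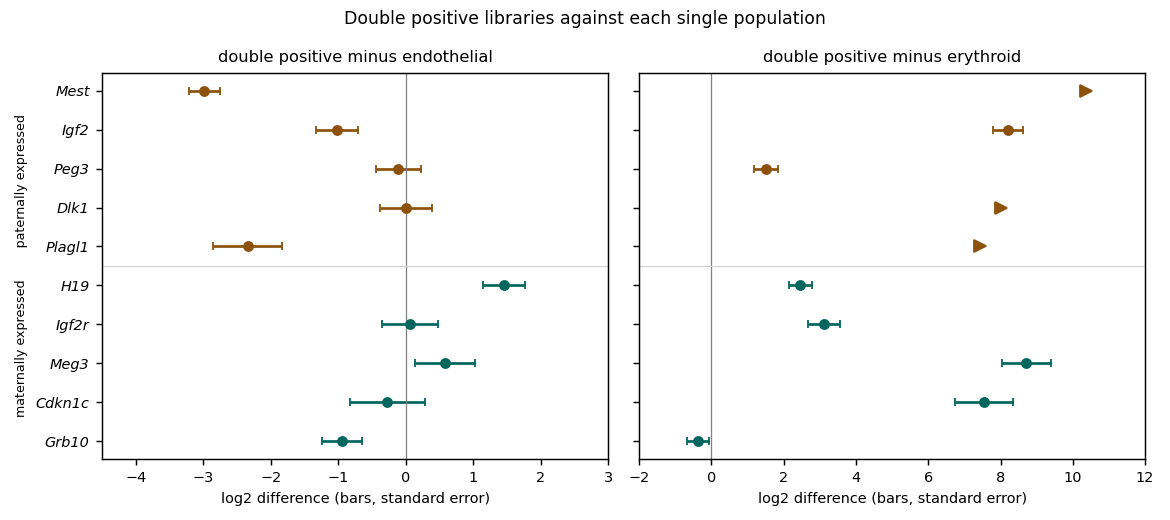
Log2 difference of each gene in double positive minus endothelial libraries (left) and double positive minus erythroid libraries (right). Circles are fitted values with standard errors, and triangles are lower bounds for genes with 0 counts in all erythroid libraries. On the left Mest, Plagl1, Igf2 and Grb10 lie lowest and H19 highest, and on the right only Grb10 lies below 0 (it lies above 0 when libraries are scaled by library size alone).

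Mest encodes a protein of the alpha/beta-hydrolase family and is widely transcribed in embryonic mesoderm. The gene lies at chr6:30723547-30748465 (plus strand). It had 359 and 400 CPM in double positive replicates 7 and 8, 0 in the 3 erythroid libraries, and 3745, 2440 and 2834 CPM in endothelial replicates 1, 2 and 3. No library of 1 population reached the range of another. The mean was 7.92-fold lower in double positive libraries than in endothelial ones, and at least 1329-fold higher in double positive libraries than in erythroid ones, where 0 of 3 libraries had a read. A count of 0 over the erythroid libraries allows a level of up to 0.285 CPM. In erythroid against endothelial libraries the fall was at least 10530-fold and ranked first of all 12136 genes by fitted value. In such pools fewer cells of a type and less RNA per cell cannot be told apart. The Mest exons share 912 bases with those of Copg2 on the opposite strand, and the strand setting of the counting is not given in the sources used here.

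Plagl1 encodes a zinc finger transcription factor that restrains proliferation and is itself known to act on other imprinted genes. Its position is chr10:13060504-13131694 (plus strand). It had 46.8 and 51.4 CPM in double positive replicates 7 and 8, 0 in all 3 erythroid libraries, and 310, 106 and 334 CPM in endothelial replicates 1, 2 and 3. The double positive libraries lay close together and below all endothelial libraries, and endothelial replicate 2 lay well below the other endothelial pools. The difference between double positive and endothelial libraries was -2.35 on the log2 scale (SE 0.51, adjusted p = 0.0198, edgeR). That call was lost without endothelial replicate 1 (adjusted p = 0.0577), endothelial replicate 3 (0.0549), double positive replicate 7 (0.122) or double positive replicate 8 (0.108), and with limma-voom (0.052), while the value stayed between -2.99 and -2.09 in all settings. Against erythroid libraries Plagl1 was at least 172-fold higher in double positive libraries, a direction fixed by the 0 counts in erythroid libraries. The erythroid fall against endothelial libraries was at least 874-fold. Hymai, the noncoding transcript from the same locus, had 10 counts in double positive, 0 in erythroid and 129 in endothelial libraries, summed over each group.

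Igf2 encodes insulin-like growth factor 2, the main growth-promoting ligand of the mouse embryo. It is found at chr7:142650766-142666816 (minus strand). It had 850 and 741 CPM in double positive replicates 7 and 8, then 2.80, 3.81 and 1.30 CPM in erythroid replicates 4, 5 and 6, and 1722, 1018 and 2097 CPM in endothelial replicates 1, 2 and 3. The 3 populations did not overlap, and endothelial replicate 2 was the nearest to the double positive libraries. Igf2 was lower in double positive libraries than in endothelial ones by a log2 difference of -1.02 (SE 0.31, adjusted p = 0.0473, edgeR). This call lay close to the threshold and was lost without endothelial replicate 1 (adjusted p = 0.108), endothelial replicate 3 (0.124), double positive replicate 7 (0.160) or double positive replicate 8 (0.247), and with limma-voom (0.0639). Against erythroid libraries the log2 difference was 8.21 (SE 0.41, adjusted p = 5.06e-06, edgeR), 297-fold, with both double positive libraries above all erythroid ones. The erythroid mean was 601-fold lower than the endothelial mean.

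H19 is a spliced noncoding RNA, transcribed from the maternal copy under an enhancer system that Igf2 uses on the paternal copy. The locus is chr7:142575529-142578143 (minus strand), 72622 bases from Igf2. It had 2504 and 1809 CPM in double positive replicates 7 and 8, then 418, 449 and 305 CPM in erythroid replicates 4, 5 and 6, and 851, 477 and 1034 CPM in endothelial replicates 1, 2 and 3. Double positive libraries were the highest of the 8, and endothelial replicate 2 lay just above the erythroid libraries. The log2 difference of double positive from endothelial libraries was 1.45 (SE 0.31, adjusted p = 0.0113, edgeR), or 2.74-fold. It was 0.83 with library size alone (adjusted p = 0.0915), and the call was also lost without double positive replicate 7 (1.21, adjusted p = 0.0798). Against erythroid libraries the log2 difference was 2.46 (SE 0.31, adjusted p = 0.000379, edgeR). The erythroid mean was 2.01-fold lower than the endothelial mean. H19 was the one member with more than 300 CPM in every erythroid library.

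The neighbours H19 and Igf2 had differences of opposite sign between double positive and endothelial libraries, with the limits of both calls given above. There were 2.95 and 2.44 reads of H19 for each read of Igf2 in double positive replicates 7 and 8, 149, 118 and 234 in erythroid replicates 4, 5 and 6, and 0.494, 0.468 and 0.493 in endothelial replicates 1, 2 and 3. The ratio was nearly equal in the 3 endothelial libraries, although the levels of H19 and Igf2 in replicates 1 and 3 averaged 1.98-fold and 1.88-fold those of replicate 2, and the populations did not overlap. The log2 ratio was higher in double positive libraries than in endothelial ones by 2.47, and both double positive libraries lay above all 3 endothelial ones (exact two-sided permutation p = 0.2, the smallest that 2 against 3 libraries allow). The ratio was chosen after its values were seen. It depends on 28 reads of Igf2 in the erythroid libraries, and it is a ratio of reads, not of molecules per length. Reads of Igf2 may include those of Igf2os, whose exons share 98 bases with it on the opposite strand.

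Igf2r encodes the receptor that carries IGF2, and proteins tagged with mannose 6-phosphate, to the lysosome. Its coordinates are chr17:12682406-12769664 (minus strand). It had 177 and 102 CPM in double positive replicates 7 and 8, then 24.2, 16.8 and 6.85 CPM in erythroid replicates 4, 5 and 6, and 121, 155 and 125 CPM in endothelial replicates 1, 2 and 3. The double positive and endothelial ranges overlapped, and the erythroid libraries lay below both. The log2 difference of double positive from endothelial libraries was 0.06 (SE 0.42, adjusted p = 0.941, edgeR), and from erythroid libraries it was 3.11 (SE 0.44, adjusted p = 0.000706). The erythroid mean was 8.25-fold lower than the endothelial mean. Airn, the noncoding RNA from the paternal copy of the Igf2r locus, averaged 11.1 ± 0.193 CPM in double positive libraries (SD, n = 2), 0 in erythroid libraries and 16.3 ± 8.11 CPM in endothelial libraries (SD, n = 3).

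Grb10 encodes an adaptor protein that binds insulin and IGF1 receptors and damps their signal. It maps to chr11:11930508-12038683 (minus strand). It had 68.4 and 49.3 CPM in double positive replicates 7 and 8, then 70.2, 53.9 and 106 CPM in erythroid replicates 4, 5 and 6, and 124, 108 and 109 CPM in endothelial replicates 1, 2 and 3. As a ratio of the highest to the lowest library, its spread was the smallest of the 10 genes. Double positive libraries lay below all endothelial libraries, by a log2 difference of -0.95 (SE 0.30, adjusted p = 0.0534, edgeR), which did not pass. It passed with DESeq2 (adjusted p = 0.00745), limma-voom (0.0245), library size alone (0.0105), RLE factors, a median-ratio scaling (0.0351), globin genes and Rn45s removed (0.0351), a minimum count of 50 (0.0438) and only the populations compared (0.0166), and its adjusted p ran up to 0.338 over all settings. Against erythroid libraries the log2 difference was -0.38 (SE 0.30, adjusted p = 0.340, edgeR), with overlapping libraries, and it was 0.54 with library size alone. The neighbouring imprinted gene Ddc averaged 75.2 ± 3.41 CPM in double positive, 20.8 ± 9.36 CPM in erythroid and 0.197 ± 0.173 CPM in endothelial libraries.

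Cdkn1c encodes p57Kip2, a cyclin-dependent kinase inhibitor that holds cells out of division. The locus lies at chr7:143458339-143461050 (minus strand), 880195 bases from H19. It had 193 and 126 CPM in double positive replicates 7 and 8, then 2.10, 0 and 0 CPM in erythroid replicates 4, 5 and 6, and 195, 105 and 279 CPM in endothelial replicates 1, 2 and 3. The double positive libraries lay within the endothelial range. The log2 difference between them was -0.27 (SE 0.56, adjusted p = 0.792, edgeR). Against erythroid libraries, where all 9 reads came from replicate 4, it was 7.54 (SE 0.80, adjusted p = 0.000148), or 187-fold. The erythroid mean was 226-fold lower than the endothelial mean.

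Dlk1 and Meg3 share an imprinted cluster on chromosome 12, 77664 bases apart. Dlk1 (chr12:109452823-109463336, plus strand) encodes a transmembrane protein related to Notch ligands and had 89.6 and 58.3 CPM in double positive replicates 7 and 8, 0 in the 3 erythroid libraries, and 77.3, 46.8 and 97.1 CPM in endothelial replicates 1, 2 and 3. Its double positive and endothelial libraries overlapped, with a log2 difference of 0.00 (SE 0.39, adjusted p = 0.996, edgeR). Dlk1 was at least 259-fold higher in double positive libraries than in erythroid ones, a direction fixed by the 0 counts in erythroid libraries. The erythroid fall against endothelial libraries was at least 258-fold.

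Meg3 (chr12:109541001-109571726, plus strand) is a noncoding RNA of the maternal copy. It had 244 and 170 CPM in double positive replicates 7 and 8, then 1.17, 0 and 0 CPM in erythroid replicates 4, 5 and 6, and 85.8, 147 and 182 CPM in endothelial replicates 1, 2 and 3. The double positive and endothelial libraries overlapped, since replicate 8 lay below endothelial replicate 3. The log2 difference was 0.58 (SE 0.44, adjusted p = 0.416, edgeR), and -0.03 with library size alone. Against erythroid libraries, with 5 reads in replicate 4 and 0 in the others, it was 8.72 (SE 0.69, adjusted p = 3.24e-05), a 421-fold difference, and the erythroid mean was 282-fold lower than the endothelial mean. There were 2.72 and 2.91 reads of Meg3 for each read of Dlk1 in double positive libraries and 1.11, 3.15 and 1.87 in endothelial replicates 1, 2 and 3. These ratios overlapped (log2 difference 0.59, exact two-sided permutation p = 0.6). Rian and Mirg, other noncoding RNAs of the same cluster, stood at 0 in all erythroid libraries, and averaged 39.8 ± 3.90 and 15.1 ± 0.573 CPM in double positive libraries and 40.3 ± 14.9 and 10.1 ± 4.06 CPM in endothelial libraries.

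Peg3 encodes a large zinc finger protein known for its role in growth and maternal behaviour. Its position is chr7:6703892-6730431 (minus strand). It had 151 and 159 CPM in double positive replicates 7 and 8, then 31.0, 52.7 and 81.8 CPM in erythroid replicates 4, 5 and 6, and 168, 152 and 182 CPM in endothelial replicates 1, 2 and 3. Replicate 8 lay above endothelial replicate 2, so those populations overlapped, and the erythroid libraries lay below both. The log2 difference of double positive from endothelial libraries was -0.11 (SE 0.33, adjusted p = 0.869, edgeR), and from erythroid libraries it was 1.5 (SE 0.33, adjusted p = 0.00711). The erythroid mean was 3.05-fold lower than the endothelial mean. Usp29, transcribed away from Peg3, had 35 counts in double positive, 5 in erythroid and 44 in endothelial libraries.

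Levels of different genes can be set side by side only per length, here CPM per kilobase of annotated exon. In double positive libraries H19 stood first at 876 ± 200 CPM per kb (SD, n = 2), followed by Igf2 at 139 ± 13.5, Mest at 96.2 ± 7.32 and Cdkn1c at 78.3 ± 23.5. In erythroid libraries H19 stood first at 159 ± 30.7 CPM per kb (SD, n = 3), followed by Grb10 at 8.43 ± 2.91, Peg3 at 4.14 ± 1.92 and Igf2r at 1.72 ± 0.938. In endothelial libraries Mest stood first at 762 ± 170 CPM per kb (SD, n = 3), followed by H19 at 320 ± 116, Igf2 at 282 ± 95.7 and Cdkn1c at 94.6 ± 42.5. Several neighbours lay within each other's spread, among them Mest and Cdkn1c in double positive libraries and H19 and Igf2 in endothelial libraries. Of the summed per-length level of the 10 genes, H19 took 67.9% and 71.4% in the double positive libraries, 86.9% to 93.7% in the erythroid libraries and 17.4% to 24.0% in the endothelial libraries. Mest took 6.38% and 9.37%, 0%, and 41.0% to 55.6% in those populations.

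**Figure D3:**
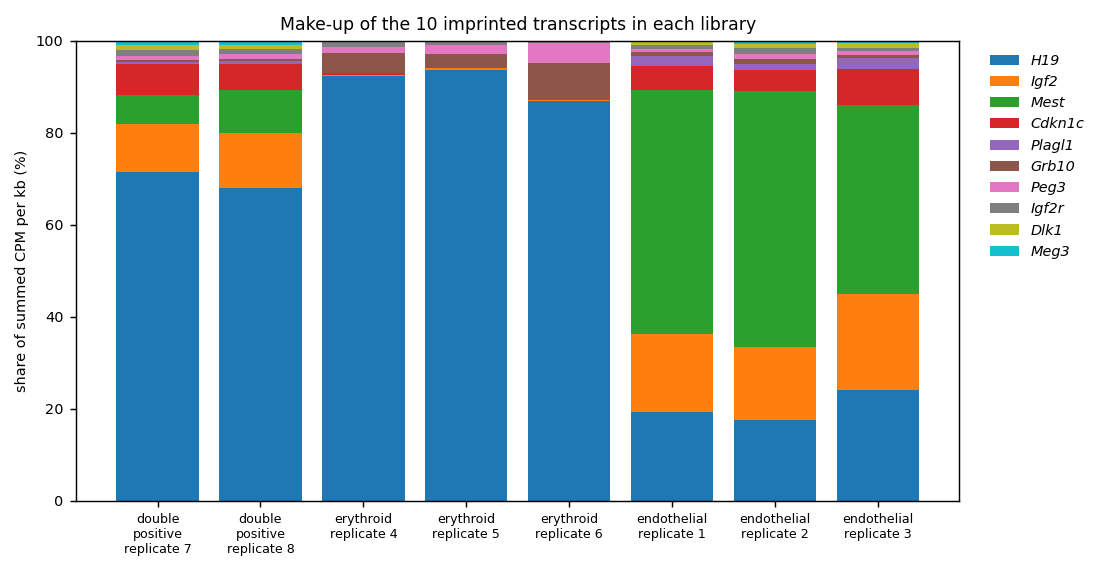
Share of each gene in the summed CPM per kb of the 10 genes, as stacked bars from 0 to 100% for each library, with double positive libraries at the left, erythroid in the middle and endothelial at the right. H19 takes at least 67.9% of every double positive bar and at least 86.9% of every erythroid bar, and Mest takes at least 41.0% of every endothelial bar.

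The endothelial libraries differed among themselves. Replicate 2 had the lowest endothelial value for 8 of the 10 genes, where 35.0% of all tested genes with endothelial counts were lowest there. The mean of replicates 1 and 3 was 3.04-fold that of replicate 2 for Plagl1, 2.25-fold for Cdkn1c, 1.98-fold for H19, 1.88-fold for Igf2 and 1.87-fold for Dlk1. It was only 1.35-fold for Mest, 1.15-fold for Peg3 and 1.08-fold for Grb10, which was nearly equal in replicates 2 and 3. The exceptions were Igf2r and Meg3. The 14 macrophage markers summed to 45.7 and 83.6 CPM in double positive libraries, to 0 in all erythroid libraries and, over endothelial replicates 1, 2 and 3, to 920, 2870 and 922 CPM. The summed level of 10 megakaryocyte and platelet markers was also highest in replicate 2, although 4 of the 10 had 0 counts there. The sum was 10.3 and 76.6 CPM in double positive libraries and 38.5 to 53.6 CPM in erythroid libraries. In endothelial replicates 1, 2 and 3 it was 642, 998 and 666 CPM. Pf4 and Vwf alone averaged 642 and 100 CPM over the endothelial libraries. Without replicate 2 the double positive against endothelial calls stood, at log2 differences of 1.18 for H19 (adjusted p = 0.0165, edgeR), -1.27 for Igf2 (adjusted p = 0.0118) and -2.72 for Plagl1 (adjusted p = 0.00152). Whether RNA of the macrophage list or of the megakaryocyte and platelet list bears on the lower values was not tested.

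The spread of log2 differences was also set beside the marker lists. The 18 core endothelial genes had a median log2 difference of -2.82 in double positive against endothelial libraries, and 15 of them were lower. Mest, Plagl1 and Igf2 lay on the same side, as did Grb10 at -0.95, which was not called, whereas Dlk1, Cdkn1c, Igf2r, Meg3 and Peg3 lay between -0.27 and 0.58. The 20 visceral endoderm genes had a median of 10.68 with genes at 0 set to their bound. Sox17, at -3.13, is in both this list and the core endothelial list. In endothelial libraries 9 of the 20 genes were at 0, whereas H19 averaged 787 CPM, so its difference of 1.45 cannot be set against that median. What endoderm RNA adds to H19 was not tested.

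**Figure D4:**
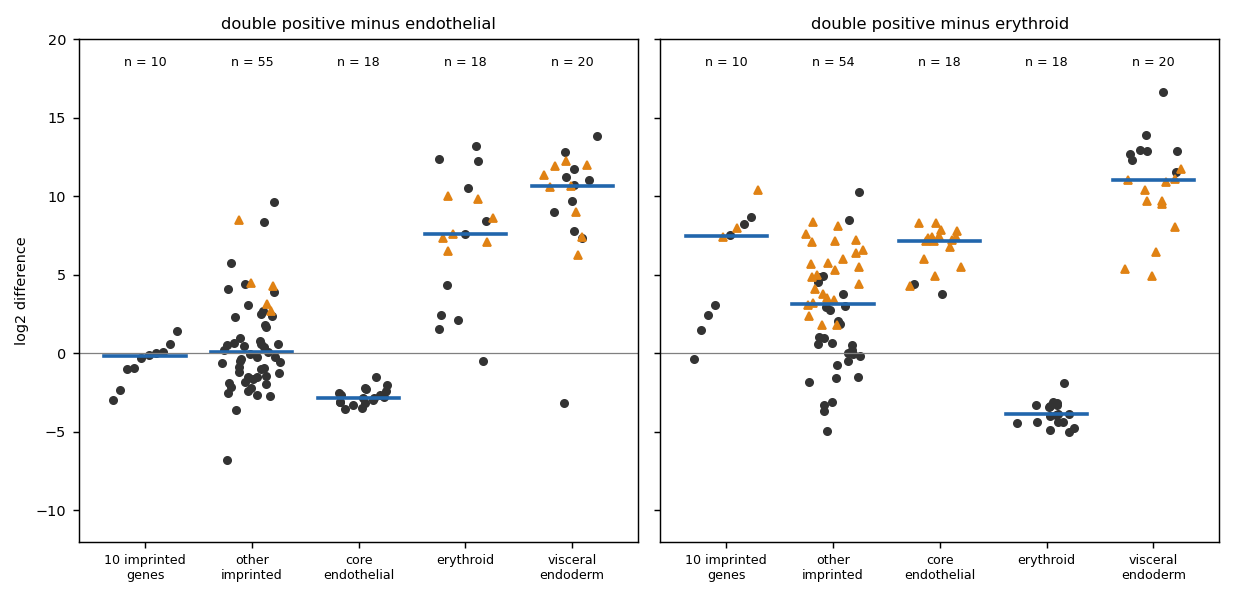
Log2 difference of double positive minus endothelial libraries (left) and double positive minus erythroid libraries (right) for the 10 imprinted genes, the other imprinted genes and 3 marker lists. Circles are fitted values, triangles are lower bounds for genes at 0 in the population subtracted, blue lines are medians, and n is the number of genes with a value. At the left the 10 genes lie between -2.99 and 1.45, around the line at 0.

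By root mean square distance between centred log2 CPM profiles over the 8 libraries, the genes most like Mest were Sparc (distance 0.68), Plvap (0.89) and Stab2 (0.89). Those most like H19 were Pttg1ip (0.27), Ppcs (0.28) and Galk1 (0.30), and those most like Igf2 were Col4a2 (0.40), Hmox1 (0.43) and Ddah1 (0.43). Plagl1 lay nearest to Prkcdbp (0.22), Timp3 (0.23) and Igfbp3 (0.24). Dlk1 lay nearest to Rbpms (0.21), Myo7a (0.25) and Sgce (0.25), the last itself imprinted. Meg3 and Cdkn1c were among each other's 3 nearest genes, at a distance of 0.57, and both had Sptbn1 as the nearest. For Igf2r they were Iffo2, Twf1 and Pdia4, for Peg3 Ufl1, St7l and Appl1, and for Grb10 Ywhab, Cant1 and Pms2, at distances of 0.20 to 0.28. The profiles share the same 8 libraries and no test goes with them.

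The other imprinted genes were read from a list of 69, of which 67 had a row and 55 were tested. In double positive against endothelial libraries 15 of the 55 were higher and 5 lower, beside 14.6% and 6.92% of all genes. In double positive against erythroid libraries 32 were higher and 5 lower, beside 31.5% and 10.6%. In erythroid against endothelial libraries 5 were higher and 27 lower, beside 14.4% and 26.6%, and with library size alone 4 were higher and 42 lower. Reads were present for 62 of the 67 in double positive, 30 in erythroid and 54 in endothelial libraries, over each group. The order was the same for all 24454 gene rows, counted by library. Reads were present for 14059 and 13980 in the double positive libraries, 8673 to 8746 in the erythroid and 11744 to 11884 in the endothelial libraries. Snrpn, Snurf, Nap1l5, Th and Kcnk9 were at 0 in every library, and Snrpn and Snurf overlap, so the counting could drop their reads. By parental allele, 13 of 22 paternally expressed genes and 14 of 33 maternally expressed genes were lower in erythroid against endothelial libraries, and 1 and 4 were higher. Many of these genes are imprinted only in placenta or in a few tissues, among them Ddc, of which 1 transcript is known as paternally expressed in the mouse heart.

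Of these, the ones higher in double positive libraries than in endothelial ones with the smallest adjusted p were Ddc, Phlda2, Impact and Peg10. Phlda2, which restrains growth of the placenta, averaged 582 ± 38.9 CPM in double positive, 1.60 ± 1.59 CPM in erythroid and 0.754 ± 1.17 CPM in endothelial libraries. Its log2 difference of double positive from endothelial libraries was 9.62 (SE 0.89, adjusted p = 0.000172, edgeR), or 12.51 without endothelial replicate 3 and 8.96 without endothelial replicate 1, and that of Ddc, dopa decarboxylase, was 8.39 (adjusted p = 0.00011). Impact, a regulator of translation under stress, averaged 226 ± 38, 7.56 ± 2.53 and 35.5 ± 2.73 CPM in double positive, erythroid and endothelial libraries. Impact was higher in double positive libraries than in both others, by 2.67 against endothelial (adjusted p = 0.000217) and by 4.91 against erythroid libraries (adjusted p = 9.57e-06). Peg10, a gene derived from a retrotransposon and needed for the placenta, averaged 119 ± 5.07, 0.109 ± 0.188 and 7.03 ± 3.44 CPM. It was 16.9-fold higher in double positive libraries than in endothelial ones (adjusted p = 0.00071).

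Those lower in double positive libraries than in endothelial ones included Ndn, the growth-suppressing MAGE protein necdin, Gatm, an enzyme of creatine synthesis, Slc38a4, an amino acid transporter, and Nap1l4, a histone chaperone. Ndn averaged 13.1 ± 0.104 CPM in double positive libraries, 0 in erythroid libraries and 87.2 ± 2.33 CPM in endothelial libraries, with a log2 difference of -2.73 between double positive and endothelial libraries (adjusted p = 0.00165, edgeR). Gatm averaged 41.1 ± 14.0, 0 and 181 ± 27.2 CPM (log2 difference -2.14, adjusted p = 0.00421). Slc38a4 averaged 24.1 ± 15.2, 0 and 137 ± 42.2 CPM (log2 difference -2.51, adjusted p = 0.0149), with -3.36 without double positive replicate 8 and -1.97 without double positive replicate 7, where the call was lost (adjusted p = 0.0644). The 3 genes shared the order seen for Mest and Plagl1, with endothelial libraries highest and erythroid libraries at 0. Sgce, a sarcoglycan next to Peg10, averaged 95.4 ± 10.2 CPM in double positive, 0 in erythroid and 63.9 ± 16.6 CPM in endothelial libraries, and was at least 334-fold higher in double positive libraries than in erythroid ones (adjusted p = 3.05e-05). Cd81, a tetraspanin, averaged 213 ± 33.4, 9.42 ± 7.61 and 658 ± 68.5 CPM, and was lower in erythroid than in endothelial libraries by a log2 difference of -6.17 (adjusted p = 4.97e-05), or -7.01 without erythroid replicate 6.

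A few imprinted genes ran the other way and were highest in erythroid libraries. Tspan32, a tetraspanin of blood cells, averaged 15.5 ± 11.4 CPM in double positive, 202 ± 28.1 CPM in erythroid and 4.32 ± 2.19 CPM in endothelial libraries, and was higher in erythroid than in endothelial libraries by 5.53 on the log2 scale (adjusted p = 7.21e-05, edgeR). Ano1, a calcium-activated chloride channel, averaged 1.35 ± 1.33, 43.1 ± 14.7 and 0 CPM, and Ascl2, a transcription factor, averaged 1.0 ± 0.603, 8.85 ± 1.68 and 0 CPM. Both were higher in erythroid than in endothelial libraries, at least 286-fold for Ano1 (adjusted p = 0.000364) and at least 58.6-fold for Ascl2 (adjusted p = 0.00197). Ampd3, the AMP deaminase of red cells, averaged 2.42 ± 2.34, 24.0 ± 8.28 and 4.55 ± 1.26 CPM and was lower in double positive libraries than in erythroid ones by a log2 difference of -3.30 (adjusted p = 0.0126), with -4.90 without double positive replicate 8 and -2.54 without double positive replicate 7, where the call was lost (adjusted p = 0.0870). Nap1l4 averaged 49.3 ± 3.21, 175 ± 2.28 and 133 ± 11.1 CPM, and its double positive libraries were lower than both others, by -1.83 against erythroid (adjusted p = 8.26e-05) and -1.43 against endothelial libraries (adjusted p = 0.000673).

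**Figure D5:**
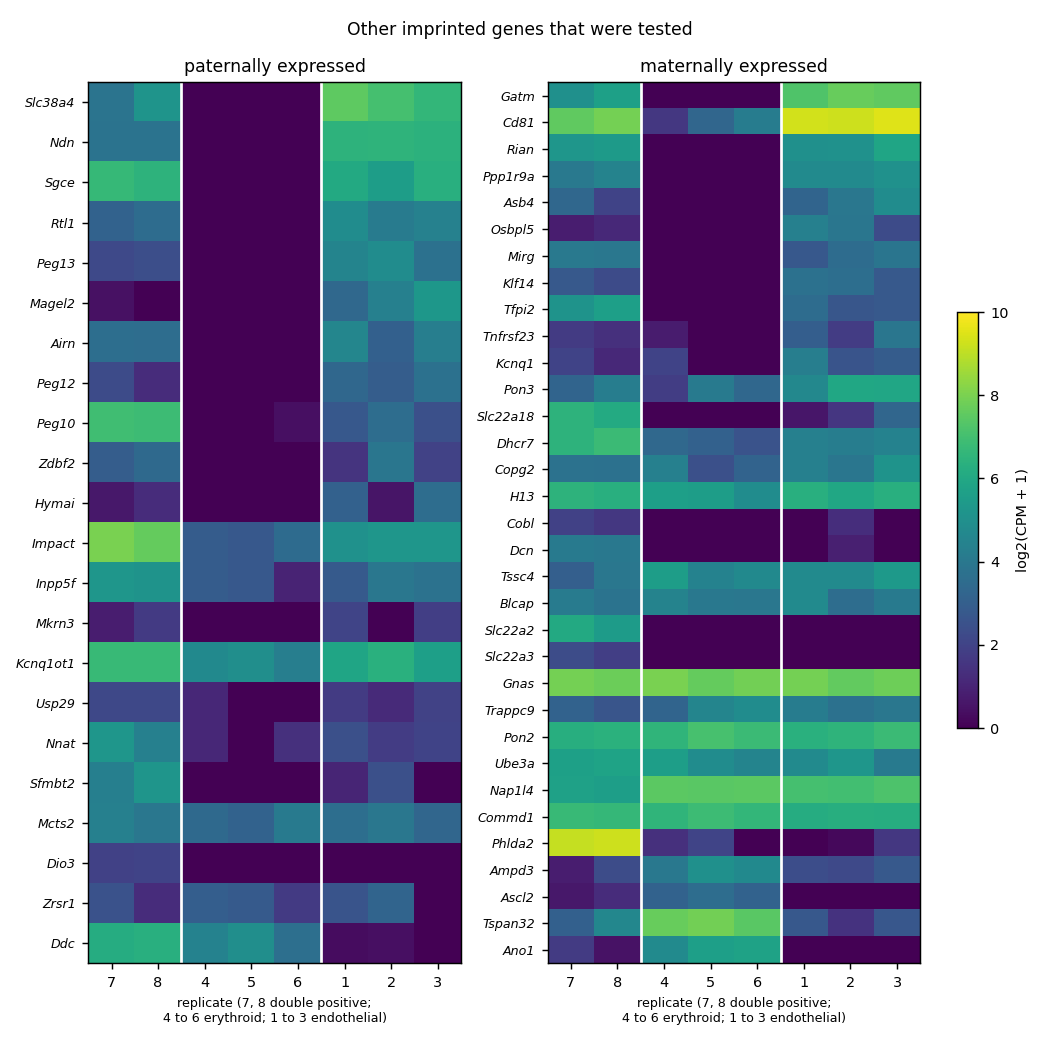
Level of the 55 other imprinted genes that were tested, as colour for log2(CPM + 1) in each library, paternally expressed genes at the left and maternally expressed genes at the right, sorted by the mean difference of erythroid from endothelial libraries. Columns are double positive replicates 7 and 8, erythroid replicates 4 to 6 and endothelial replicates 1 to 3. The erythroid columns are dark for most paternally expressed genes, and Tspan32 and Ano1 at the lower right are brightest there.

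Genes that act with Igf2 were read from a list of 18, of which 14 were tested. In double positive against endothelial libraries 3 were higher (Irs2, Igfbp1 and Insr) and 3 lower (Igfbp4, Igf1 and Igfbp3), beside 14.6% and 6.92% of all genes. Igf1, the related ligand, averaged 18.6 ± 13.4 CPM in double positive libraries, 0 in erythroid libraries and 130 ± 13.7 CPM in endothelial libraries, with a log2 difference of -2.80 between double positive and endothelial libraries (adjusted p = 0.00992, edgeR), or -2.20 without double positive replicate 7 and -3.83 without double positive replicate 8. Igfbp4 and Igfbp3, which bind IGFs outside the cell, differed by -1.78 (adjusted p = 0.000601) and -2.16 (adjusted p = 0.0125), and the call of Igfbp3 was lost without double positive replicate 7 (adjusted p = 0.0587) or 8 (0.0935). Igfbp1, another binding protein, averaged 116 ± 98.2 CPM in double positive libraries and stood at 0 in both other populations, at least 770-fold higher than in endothelial libraries (adjusted p = 0.00384). Insr, the insulin receptor, averaged 33.3 ± 8.12, 7.07 ± 3.20 and 4.90 ± 1.01 CPM in double positive, erythroid and endothelial libraries, and was higher in double positive libraries by 2.76 against endothelial libraries (adjusted p = 0.00833), a call lost without double positive replicate 7 (adjusted p = 0.122) or 8 (0.0555).

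Igf1r, the receptor that carries the growth signal of both IGFs, averaged 5.29 ± 1.71 CPM in double positive, 10.4 ± 7.54 CPM in erythroid and 14.0 ± 3.44 CPM in endothelial libraries, and no comparison was called (adjusted p = 0.258, 0.346 and 0.673 for double positive against endothelial, double positive against erythroid and erythroid against endothelial), although with library size alone it was lower in erythroid than in endothelial libraries (-1.96, adjusted p = 0.0336). In erythroid libraries 9 of the 14 were lower than in endothelial libraries and 1 was higher, beside 26.6% and 14.4% of all genes. The higher one was Irs2, an adaptor of the insulin receptor, at 7.06 ± 2.69, 20.2 ± 3.02 and 0 CPM in double positive, erythroid and endothelial libraries (at least 134-fold, adjusted p = 0.000272). In double positive libraries 11 of the 14 were higher than in erythroid libraries, beside 31.5% of all genes. Igf2bp1, Igf2bp2 and Igf2bp3, which bind the Igf2 transcript, averaged 42.1 ± 1.30, 36.2 ± 11.8 and 79.7 ± 22.8 CPM in double positive libraries, 1.29 ± 1.67, 0 and 4.28 ± 3.75 CPM in erythroid libraries, and 44.0 ± 3.23, 14.3 ± 5.01 and 83.1 ± 27.3 CPM in endothelial libraries. All 3 were lower in erythroid than in endothelial libraries (adjusted p = 0.000689, 0.000423 and 0.00262), and none of the 3 was called between double positive and endothelial libraries (adjusted p = 0.96, 0.138 and 0.968), although Igf2bp2 at 1.34 passed with limma-voom (adjusted p = 0.0279) and with only the populations compared (0.0453).

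The list of imprint maintenance factors held 14 genes, of which 11 were tested. Those tested include Tet1, Tet2 and Tet3, which act in removing methylation and do not set or keep it. In double positive against endothelial libraries 0 were called by edgeR, with 2 at an unadjusted p under 0.05, 1 lower by DESeq2 and 1 higher by limma-voom, and with library size alone Dnmt1 was lower (-1.30, adjusted p = 0.02). Of all genes 14.6% were called higher and 6.92% lower by edgeR in that comparison. In double positive against erythroid libraries 5 were higher and 2 lower, beside 31.5% and 10.6% of all genes. In erythroid against endothelial libraries 2 were higher and 4 lower, beside 14.4% and 26.6%. Dnmt1, which copies methylation at replication, averaged 31.7 ± 5.12, 105 ± 31.1 and 50.7 ± 4.87 CPM in double positive, erythroid and endothelial libraries, and Uhrf1, which brings it to the site, averaged 28.7 ± 4.93, 160 ± 50.7 and 56.4 ± 10.8 CPM. In double positive libraries both were lower than in erythroid ones, with log2 differences of -1.72 (adjusted p = 0.00207, edgeR) and -2.47 (adjusted p = 0.000631), and with library size alone Dnmt1 was at -0.81 and its call was lost (adjusted p = 0.0585). Their erythroid levels were higher than endothelial by 1.05 (adjusted p = 0.00931) and 1.5 (adjusted p = 0.0027), but with library size alone these differences were -0.49 and -0.05.

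Zfp57, a zinc finger protein that binds methylated imprinting control regions, averaged 41.1 ± 2.70 CPM in double positive, 0.311 ± 0.538 CPM in erythroid and 32.3 ± 4.38 CPM in endothelial libraries. It was lower in erythroid than in endothelial libraries by a log2 difference of -6.37 (adjusted p = 0.000245, edgeR), with 4 reads in erythroid replicate 4 and 0 in the others, so that without that replicate the erythroid libraries stand at 0. Dnmt3a, which sets new methylation, averaged 62.1 ± 7.37 CPM, 0 and 40.7 ± 8.25 CPM, and Dnmt3b averaged 4.78 ± 2.17, 0 and 16.8 ± 10.8 CPM. Dnmt3a was at least 217-fold higher in double positive libraries than in erythroid ones (adjusted p = 4.08e-05) and Dnmt3b at least 16.8-fold (adjusted p = 0.00762). Trim28, the partner through which Zfp57 acts, averaged 81.9 ± 8.85, 63.7 ± 2.14 and 67.7 ± 18.4 CPM, and no comparison was called (adjusted p = 0.523, 0.292 and 0.824 for double positive against endothelial, double positive against erythroid and erythroid against endothelial). With library size alone it was higher in double positive libraries than in erythroid ones (1.28, adjusted p = 0.0040), and in erythroid libraries it was lower than in endothelial ones (-1.63, adjusted p = 0.000546).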

How the data were processed

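RNA from 8 sorted yolk sac pools was amplified by Smart-seq2 with 14 PCR cycles, per the labels' protocols, and carries no molecular identifiers, so floors reflect counting error alone. The authors deposited raw read counts per gene symbol. The submitters' processing notes name FastQC, HTSeq and the build mm10, and no aligner, version or strand setting is given in the sources used here. All 8 value columns matched a sample by title, and groups follow the labelled gates. Coordinates and exon lengths are from the GENCODE annotation of GRCm38, and sequences from RefSeq (GRCm38.p6).

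Genes were kept by edgeR's filterByExpr at a minimum count of 10, and 12136 of 24454 were fitted with edgeR 4.0.16 (R 4.3.3): TMM factors, 1 mean per population over all 8 libraries, robust quasi-likelihood tests, Benjamini-Hochberg adjustment over all genes and a two-sided threshold of 0.05. The common biological coefficient of variation was 0.54. Folds against a group at 0 use 3 counts over the group as the floor. A gene at 0 over a group passed the filter only through the others, so the direction of its difference from that group was fixed. Ratios of reads were compared by exact permutation. Likeness used log2 CPM with a prior count of 2. Alternatives were DESeq2 1.42.0, limma-voom (limma 3.58.1), RLE factors, library size alone, globin genes and Rn45s removed, a minimum count of 50, no filter, a fit on the populations compared alone, and each library left out.

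The members and all gene lists were chosen with earlier results of these data known. Named beside the 10 members were, in each comparison and direction, the 4 other imprinted genes and the 3 genes of the IGF and imprint maintenance lists with the smallest adjusted p among those called. Also named were every microRNA row with counts among the 14 read, and Igf1r, Igf2bp1, Igf2bp2, Igf2bp3, Dnmt1, Zfp57 and Trim28. Hymai, Airn, Usp29, Rian and Mirg were added as neighbours after their values were seen, as were the ratios of neighbouring genes.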

Additional observations from a re-analysis of the deposited data

How the results depend on the processing

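Over the libraries left out in turn, the genes called in double positive against endothelial libraries ran from 977 to 2263 (2616 with all libraries), the tested members from 0 to 3 (3 with all) and the other imprinted genes from 10 to 16 (20 with all). The 0 members came without double positive replicate 7, with 4 at an unadjusted p under 0.05. For double positive against erythroid libraries all genes called ran from 2924 to 4692 (5103 with all), and the 8 members called stayed 8 in every alternative. For erythroid against endothelial libraries library size alone called 7690 genes (4977 with TMM factors), and it split them into 420 higher and 7270 lower, against 1745 and 3232. It also gave 1118 higher and 1901 lower in double positive against endothelial (1776 and 840 with TMM factors), and 5760 and 473 in double positive against erythroid libraries (3820 and 1283).

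Among the members and named genes, directions reversed only for differences near 0 or with library size alone, and the cause was not tested. In double positive against endothelial libraries Igf2r took log2 values of -0.065 with DESeq2 and with RLE factors, -0.55 with library size alone, -0.066 with globin genes and Rn45s removed, and between -0.38 and 0.40 with a library left out. Dlk1 took -0.13 with DESeq2, with RLE factors and with globin genes and Rn45s removed, -0.62 with library size alone, -0.015 with a minimum count of 50, -0.0072 with only the populations compared, and between -0.33 and 0.27 with a library left out. Meg3 took -0.035 with library size alone, and Cdkn1c ran from -0.61 to 0.076 and Igf2bp3 from -0.38 to 0.20 with a library left out, and with library size alone Trim28 took -0.35 and Zfp57 -0.29. Grb10 took 0.54 in double positive against erythroid libraries, and Dnmt1 -0.49 and Uhrf1 -0.050 in erythroid against endothelial libraries, with library size alone. Trim28 ran from -0.28 to 0.11 in the last comparison with a library left out. Over all alternatives, 198 tested values of the 9 members other than Mest kept direction and side of the threshold. A further 17 reversed, 7 newly passed and 12 no longer passed. These counts pool both double positive comparisons. Against erythroid libraries the members called stayed called in every alternative, and the direction of Dlk1 and Plagl1 was fixed by 0 counts. All 12 losses were therefore in double positive against endothelial libraries, and the pooled counts do not measure how stable the calls there were. Of the tested values of the other named genes, 820 kept direction and side of the threshold, 7 reversed, 6 newly passed and 7 no longer passed. Many of these genes were named for a small adjusted p in the same libraries, so their kept calls are not separate support.

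No paired analysis was possible because the groups share no replicate numbers. With 2 double positive pools, a left-out library leaves 1, which is then assumed to vary like the others.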
